A study of Homo sapiens with 4 samples.

Results

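The receptor tyrosine kinases named for bladder cancer were examined as a family of 10 genes, chosen by name from the 60623 genes of the deposited table: EGFR, ERBB2, ERBB3, ERBB4, FGFR1, FGFR2, FGFR3, MET, AXL and EPHA2. All 10 were found in the table. The RNA came from T24, a human bladder carcinoma line grown in RPMI with 10% FCS. There were 2 control libraries and 2 libraries made after overexpression of CBX7, a Polycomb chromobox protein that takes part in gene silencing. Full-length CBX7 was cloned in a pCDH-3xFLAG vector according to the study's methods, and neither the methods nor the labels name what the control cells carried. All 4 libraries are of this 1 cell line. Nothing says that the libraries of a group came from separate cultures, so the p-values below measure only the spread between these libraries, which may be technical. In such bulk RNA, fewer cells with a transcript and less transcript per cell cannot be told apart.

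Receptor tyrosine kinases span the cell membrane, bind growth factors or membrane-bound ligands outside the cell, pair up, and phosphorylate each other inside it, which recruits adaptors and starts RAS-ERK and PI3K signaling. In the urothelium and its tumors the ERBB receptors answer EGF-family ligands, FGFR3 is a well-known oncogene of papillary tumors, and MET, AXL and EPHA2 are linked to migration and invasion. ERBB2 has no known soluble ligand and works by pairing with its relatives, and ERBB3 has little kinase activity of its own.

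The summed expected counts, which are estimated reads per gene and need not be whole, ranged from 20800910 to 25135488 per library. CBX7 itself had TPM values (a relative level, scaled by gene length and library total) of 4.98 and 3.73 in the control libraries against 610.1 and 607.3 in the CBX7 libraries, which matched the labels of all 4 libraries. Of 6 epithelial markers, KRT7, KRT8 and KRT18 lay between 853.2 and 1465 TPM in every library, KRT19 was at 7.64 and 6.64 TPM in control and 17.3 and 15.1 TPM in CBX7 libraries, EPCAM was at 0.58 to 1.78 TPM, and CDH1 had at most 3 counts. Of 9 urothelial markers, UPK1A, UPK1B, UPK2, UPK3A and KRT20 had at most 3 counts in any library and UPK3B and GATA3 at most 0.82 TPM, while PPARG was at 22.8 to 25.9 TPM and FOXA1 at 6.78 to 9.36 TPM. Of 5 basal markers, KRT5, KRT6A, KRT14 and TP63 had at most 3 counts and CD44 was at 374.6 to 606.3 TPM. The summed TPM of the 6 mesenchymal markers was 3388 and 3364 in control against 2517 and 2624 in CBX7 libraries. Most of that sum was VIM (2757 and 2726 against 2206 and 2228) and FN1 (550 and 545 against 255 and 311). ZEB2 and SNAI2 were also lower in both CBX7 libraries. The groups overlapped for CDH2 (50.2 and 56.5 against 34.1 and 52.8) and ZEB1 (9.05 and 10.89 against 4.62 and 10.91). The summed TPM of the epithelial markers was 3248 and 3151 against 3730 and 3351, and the part of these markers in the results was not tested. All 5 blood cell markers had at most 3 counts in any library. In edgeR's quasi-likelihood test, 3 of 14862 genes tested (0.0202%) had an adjusted p under 0.05.

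T24 cells expressed 7 of the 10 receptors at a mean of at least 1 TPM in both groups. AXL, the receptor for GAS6 (ENSG00000167601), was the most abundant, with 142.7 and 156.3 TPM in control cells and 101.0 and 152.1 TPM in CBX7 cells. EPHA2, a receptor for ephrin-A ligands (ENSG00000142627), came next with 79.3 and 79.7 TPM in control cells and 63.9 and 86.9 TPM in CBX7 cells. In each of the 4 libraries AXL was the first and EPHA2 the second of the family.

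EGFR, the receptor for EGF, TGFA and related ligands (ENSG00000146648), was at 57.8 and 74.6 TPM in control cells and at 31.7 and 71.7 TPM in CBX7 cells. MET, the receptor for hepatocyte growth factor (ENSG00000105976), was close to it, at 52.9 and 67.0 TPM in control cells and 31.7 and 66.7 TPM in CBX7 cells. ERBB2 (ENSG00000141736) had 40.6 and 39.3 TPM in control cells and 32.2 and 40.1 TPM in CBX7 cells. Across control libraries the values of EGFR and MET overlapped, although EGFR was the higher within each of the 4 libraries, by a ratio between 1.00 and 1.11. The control libraries of the other neighbouring pairs were separate down to FGFR3, while ERBB4 and FGFR2 were too low to be ordered. In CBX7 cells EPHA2 overlapped with EGFR, EGFR with MET, and MET with ERBB2, and CBX7 replicate 1 was the low library for EGFR and MET. In that library ERBB2 was listed above EGFR, with an EGFR to ERBB2 ratio of 0.985, against 1.42 to 1.899 in the other 3 libraries.

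FGFR1 and ERBB3 formed a lower tier. FGFR1, a receptor for fibroblast growth factors (ENSG00000077782), had 8.64 and 9.72 TPM in control cells and 8.41 and 11.2 TPM in CBX7 cells. ERBB3, the neuregulin receptor (ENSG00000065361), had 4.73 and 4.05 TPM in control cells and 4.68 and 5.15 TPM in CBX7 cells. The mean of ERBB2 in control cells was 4.35 times that of FGFR1, and within a library ERBB2 was 6.88 to 9.70 times as high as ERBB3. The 5 most abundant receptors made up 95.1% to 96.7% of the family's summed TPM in each library. AXL alone made up 35.0% to 36.9%.

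FGFR3, ERBB4 and FGFR2 were low or not found. FGFR3 (ENSG00000068078) was at 8 and 15 counts in the control libraries against 31 and 29 in the CBX7 libraries, with TPM values between 0.32 and 0.70. ERBB4, a further neuregulin receptor (ENSG00000178568), was at 2 and 3 counts in the control libraries against 0 and 1 in the CBX7 libraries. FGFR2 (ENSG00000066468) was listed at 0 in all 4 libraries. A count of 0 allows up to 3 counts, which is 0.119 to 0.144 CPM (counts scaled to the library total) in these libraries and covers counting error only. Neither ERBB4 nor FGFR2 exceeded this limit, so a difference between the groups was not detectable at this depth for either gene and their ratios are left out.

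**Figure D1:**
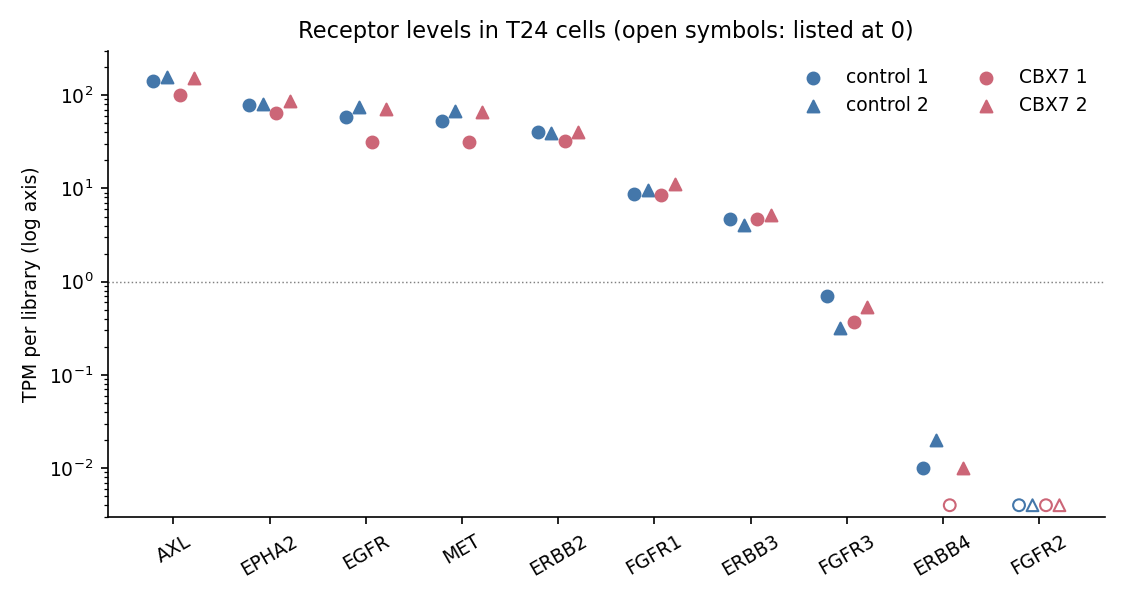
Deposited TPM of each receptor (log axis) in each library, with control libraries in blue and CBX7 libraries in red, circles for replicate 1 and triangles for replicate 2. Open symbols on the lowest line are values listed at 0, and the dotted line marks 1 TPM. The 7 receptors from AXL to ERBB3 lie above 1 TPM in all libraries, and CBX7 replicate 1 is the lowest library for AXL, EPHA2, EGFR, MET, ERBB2 and FGFR1.

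By their Ensembl identifiers the receptors lie on separate parts of the genome in GENCODE release 29 (GRCh38), apart from EGFR (chromosome 7, 55019021 to 55211628) and MET (chromosome 7, 116672390 to 116798386), which share a chromosome. The deposited table holds no coordinates, and the submitters' notes name hg19. AXL is on chromosome 19 (41219203 to 41261766), EPHA2 on chromosome 1 (16124337 to 16156087) and ERBB2 on chromosome 17 (39687914 to 39730426). ERBB3 is on chromosome 12 (56076799 to 56103505) and FGFR3 on chromosome 4 (1793293 to 1808872). ERBB4 (chromosome 2, 211375717 to 212538841) and FGFR2 (chromosome 10, 121478334 to 121598458) are the genes with at most 3 counts in any library.

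CBX7 belongs to a complex that acts at CpG-rich promoters, so the promoters of the family were read from RefSeq (GRCh38.p14), where 8 of the 10 receptors matched, all but ERBB3 and FGFR1. The bases just before the start site are shown for AXL and EGFR, which are abundant in T24 cells, and for ERBB4 and FGFR2, which are near or at 0, each cut back to end before any exon of GENCODE release 29. Capitals mark each CG dinucleotide.
AXL, chr19:41218973-41219202, plus strand: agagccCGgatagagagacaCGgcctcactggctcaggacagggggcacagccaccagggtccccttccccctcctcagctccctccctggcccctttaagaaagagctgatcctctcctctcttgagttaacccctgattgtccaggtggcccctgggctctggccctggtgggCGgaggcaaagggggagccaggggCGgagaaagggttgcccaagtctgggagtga
EGFR, chr7:55018767-55019016, plus strand: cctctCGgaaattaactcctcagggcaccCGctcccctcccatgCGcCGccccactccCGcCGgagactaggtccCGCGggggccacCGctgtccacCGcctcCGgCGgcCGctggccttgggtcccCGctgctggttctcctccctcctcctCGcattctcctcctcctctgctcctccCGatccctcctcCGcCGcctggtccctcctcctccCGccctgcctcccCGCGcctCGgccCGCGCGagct
ERBB4, chr2:212538842-212539052, minus strand: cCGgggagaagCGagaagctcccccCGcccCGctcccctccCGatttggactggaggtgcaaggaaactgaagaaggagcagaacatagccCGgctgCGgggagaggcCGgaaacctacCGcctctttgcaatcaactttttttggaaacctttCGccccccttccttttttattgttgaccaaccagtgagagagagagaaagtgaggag
FGFR2, chr10:121598459-121598694, minus strand: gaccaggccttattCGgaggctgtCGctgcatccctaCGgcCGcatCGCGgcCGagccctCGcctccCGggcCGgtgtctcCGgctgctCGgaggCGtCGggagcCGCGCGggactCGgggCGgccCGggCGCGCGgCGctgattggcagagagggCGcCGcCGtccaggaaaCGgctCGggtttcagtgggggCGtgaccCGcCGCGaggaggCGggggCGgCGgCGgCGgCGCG

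In the 250 bases before the first listed start, the motif CG (its own reverse complement) occurred 4 times for AXL, 15 times for EPHA2, 25 times for EGFR, 24 times for MET and 23 times for ERBB2. It occurred 40 times for FGFR3, 14 times for ERBB4 and 42 times for FGFR2, against a median of 11 over all 35116 RefSeq windows. As many CG dinucleotides as in FGFR2 occurred in 1.38% of all windows, and as many as in FGFR3 in 2.16%. The order differed at the further starts that RefSeq lists: the second AXL window held 13, the second EGFR window 1, and the other 4 FGFR2 windows 3, 6, 7 and 4. The motif GGGCGG on either strand, the binding sequence known as the GC box, occurred 8 times in the FGFR3 window, 3 times in FGFR2, 2 times in each of AXL, EGFR and MET, 1 time in EPHA2 and in ERBB4, and not in ERBB2. It was thus in 7 of the 8 first windows, and 42.6% of all windows held it. The motif TATAAA on either strand was in none of these first windows, against 10.7% of all windows. The deposited counts do not show which start T24 cells used.

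None of the receptors passed the adjusted threshold between CBX7-overexpressing and control cells. Of the 10, 8 had enough counts for the test, and 0 of these 8 had an adjusted p under 0.05 in edgeR's quasi-likelihood test, against 0.0202% of all genes. At an unadjusted p under 0.05 there was 1 receptor, FGFR3, which was higher in CBX7 cells, against 4.74% of genes. FGFR3 passed the filter on low counts through both CBX7 libraries and only 1 control library, and was not tested when 10 counts were required in every library, so its entry favoured that direction and nothing is read from this count. None of the 8 was lower at that threshold, against 1.32% of genes. DESeq2 called no receptor at the adjusted threshold, against 0.451% of genes. Of the 8 estimates 4 were higher and 4 lower in CBX7 cells, with a median log2 fold change of -0.029, against 0.0017 over all genes tested. The 95% interval of the fold change lay within 2-fold in both directions for 6 of the 8 (AXL, EPHA2, MET, ERBB2, FGFR1 and ERBB3), and reached beyond it for EGFR and FGFR3. In TMM-normalized CPM the groups did not overlap for 5 of the 8, FGFR3 among them, against 30.2% of all genes, and in TPM for 0 of the 8, against 29.6%.

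EGFR was the receptor with the lowest estimate and the widest spread among the abundant ones. Its TMM-normalized level was 434 and 534 CPM in control cells and 277 and 505 CPM in CBX7 cells, so that CBX7 replicate 1 was low and replicate 2 lay between the control libraries. The log2 fold change was -0.31 (standard error 0.30, 95% interval -1.05 to 0.43, adjusted p = 0.951 from edgeR). MET had 255 and 288 CPM in control cells and 183 and 284 CPM in CBX7 cells, the same pattern, with a log2 fold change of -0.22 (standard error 0.23, 95% interval -0.79 to 0.36, adjusted p = 0.951 from edgeR). For both genes a single CBX7 library carried the difference.

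The level of AXL was 478 and 491 CPM in control cells and 407 and 473 CPM in CBX7 cells, with a log2 fold change of -0.14 (standard error 0.14, 95% interval -0.48 to 0.20). Both CBX7 libraries were below both control libraries, although replicate 2 was close to control replicate 1. ERBB2 had 123 and 116 CPM in control cells and 114 and 112 CPM in CBX7 cells, a log2 fold change of -0.08 (standard error 0.13, 95% interval -0.39 to 0.24). EPHA2 had 231 and 222 CPM in control cells and 219.8 and 239 CPM in CBX7 cells, a log2 fold change of 0.02 (standard error 0.13, 95% interval -0.30 to 0.34). Its groups overlapped, with the CBX7 libraries on either side of the control libraries.

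Apart from EPHA2, the higher estimates from counts came from the receptors of lower abundance. FGFR1 had 27.0 and 26.2 CPM in control cells and 30.7 and 29.5 CPM in CBX7 cells, a log2 fold change of 0.18 (standard error 0.13, 95% interval -0.14 to 0.50, adjusted p = 0.951 from edgeR). ERBB3 had 7.75 and 7.76 CPM in control cells and 8.78 and 12.1 CPM in CBX7 cells, a log2 fold change of 0.43 (standard error 0.21, 95% interval -0.09 to 0.95, adjusted p = 0.951 from edgeR). In CPM the CBX7 libraries lay above the control libraries for both genes, and the CBX7 libraries of ERBB3 differed from each other more than replicate 1 differed from control. In TPM the groups of both genes overlapped, and limma on log2(TPM + 1) gave 0.08 for FGFR1 and 0.14 for ERBB3.

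FGFR3, the receptor with the largest estimate, rested on 83 counts over the 4 libraries. The filter on low counts stood at 0.439 CPM in at least 2 libraries. The level was 0.335 and 0.714 CPM in control cells and 1.28 and 1.30 CPM in CBX7 cells, a log2 fold change of 1.31 (standard error 0.45, unadjusted p = 0.0295, adjusted p = 0.941 from edgeR). In TPM the difference was gone: the control libraries were at 0.70 and 0.32 and the CBX7 libraries at 0.37 and 0.53, the groups overlapped, and limma on log2(TPM + 1) gave -0.05 (standard error 0.17). A value of 1 TPM of FGFR3 stood for 11.4 counts in control replicate 1, 46.9 in control replicate 2, 83.8 in CBX7 replicate 1 and 54.7 in CBX7 replicate 2. For AXL the corresponding numbers were 79.8, 66.0, 97.4 and 69.5 counts, so the relation of count to TPM differed far more between libraries for FGFR3. Which of the deposited units is nearer to the transcript level of FGFR3 was not tested.

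**Figure D2:**
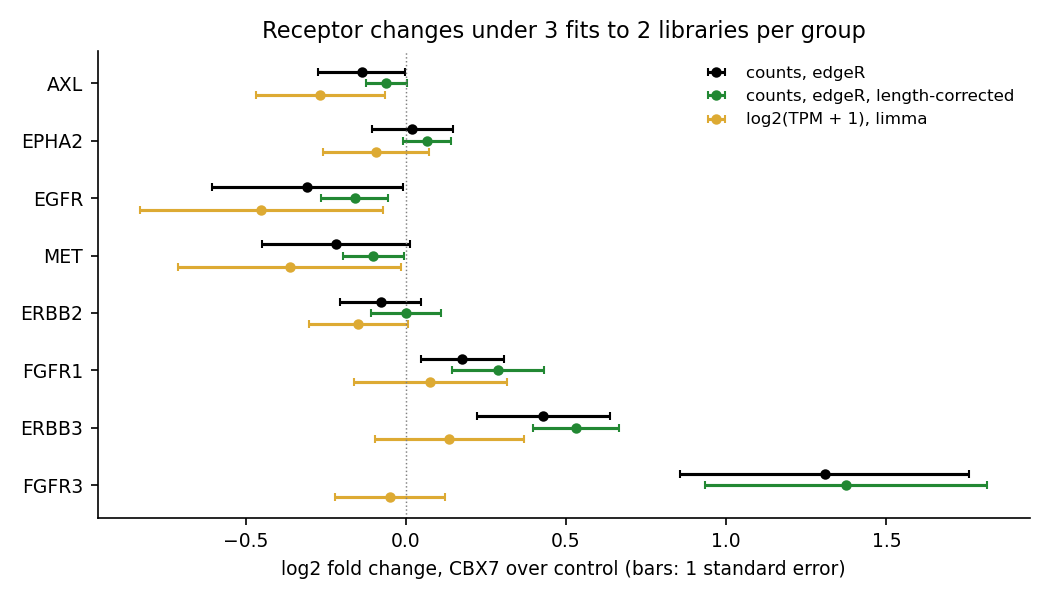
Log2 fold change of CBX7 over control with 1 standard error, for the 8 receptors tested, from the counts (edgeR, black), from the counts after the length correction (green) and from log2(TPM + 1) values (limma, yellow), each with 2 libraries per group. FGFR3 is at 1.31 from the counts and at -0.05 from TPM, and the errors of EGFR and MET are smaller after the length correction.

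In the libraries of replicate 1 the ratio of CBX7 to control also differed with gene length. EGFR and MET are long, with deposited lengths of 9905 bases for EGFR and 6876 bases for MET, against a median of 2867 bases over all genes tested. The trend was read from the 11077 genes that averaged 100 counts or more. Between the libraries of replicate 1 their log2 ratio, CBX7 over control, fell from a median of 0.41 in the shortest fifteenth of genes to -0.41 in the longest, whose median lengths were 757 and 10219 bases. Between the libraries of replicate 2 the same medians were -0.021 and 0.0020. Within a group, they were -0.083 and 0.21 for control replicate 2 over replicate 1, and -0.52 and 0.63 for CBX7 replicate 2 over replicate 1, so the trend was widest in comparisons with CBX7 replicate 1 and a smaller one in the same direction lay in control replicate 1.

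Within replicate 1, EGFR had a log2 ratio of -0.65, where the trend fitted over all genes was -0.40 at its length, and MET had -0.48, where the trend was -0.29. Both were below the middle 50% of genes of similar length, whose lower bounds were -0.60 and -0.46, and each value was larger in size than the trend. The cause of the trend was not tested. AXL had -0.23 against a trend of -0.16, ERBB2 -0.11 against -0.15 and EPHA2 -0.07 against -0.09, all close to it. FGFR1 at 0.19 and ERBB3 at 0.18 lay above trends of -0.21 and -0.24. Within replicate 2, where the trend was under 0.01 in size for each of the 8, the log2 ratio was -0.08 for EGFR, -0.02 for MET, -0.05 for AXL, -0.05 for ERBB2, 0.11 for EPHA2, 0.17 for FGFR1 and 0.64 for ERBB3. FGFR3, on its few counts, had 1.94 in replicate 1, where the trend was -0.12, and 0.86 in replicate 2. In CPM the CBX7 libraries of FGFR3, ERBB3 and FGFR1 lay above both control libraries, so any pairing of libraries gives ratios above 0. Their sign within each replicate number therefore adds nothing, and the entry of FGFR3 into the test favoured that direction. EGFR and MET were near 0 within replicate 2, which had no length trend. The part of the trend in their lower estimates was not tested. In TPM, all 8 receptors were lower in CBX7 replicate 1 than in control replicate 1. The log2 ratios were -0.92 for FGFR3, -0.015 for ERBB3 and -0.039 for FGFR1. The share of all genes lower in TPM was not counted. The median gene had 14.8 counts per TPM and kilobase in control replicate 1 and 17.7 in CBX7 replicate 1. At this median, the same count stood for a lower TPM in CBX7 replicate 1. Within replicate 2 the TPM log2 ratios were 0.73 for FGFR3, 0.35 for ERBB3, 0.21 for FGFR1, 0.13 for EPHA2 and 0.03 for ERBB2. They were -0.04 for AXL, -0.06 for EGFR and -0.006 for MET.

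After each library was corrected for its length trend, EGFR was at -0.16 (standard error 0.10) and MET at -0.10 (standard error 0.10), about the level of AXL at -0.06 (standard error 0.06). ERBB2 was at -0.00034 (standard error 0.11) and EPHA2 at 0.07 (standard error 0.07). FGFR1 was at 0.29 (standard error 0.14) and ERBB3 at 0.53 (standard error 0.13), with an unadjusted p of 0.00839 and an adjusted p of 0.375 for ERBB3 in edgeR's test. FGFR3 was at 1.38 (standard error 0.44, unadjusted p = 0.0224, adjusted p = 0.551 from edgeR). No receptor passed the adjusted threshold in this fit, nor with the replicate number as a further term, where 2.29% of all genes did.

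**Figure D3:**
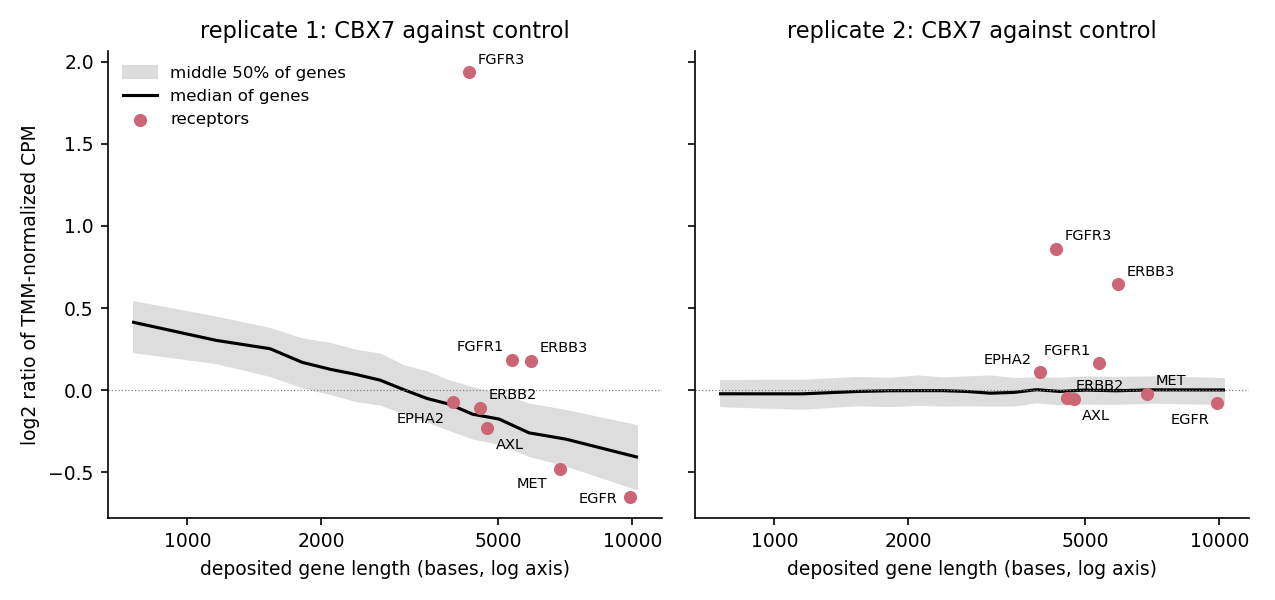
Log2 ratio of TMM-normalized CPM, CBX7 over control, against the deposited gene length (log axis), for replicate 1 on the left and replicate 2 on the right. The line is the median and the band the middle 50% of genes that averaged 100 counts or more, in 15 bins of length, and red points are the 8 receptors tested. The line runs from 0.41 to -0.41 in replicate 1 and is flat in replicate 2, and EGFR and MET are at -0.65 and -0.48 in replicate 1 and near 0 in replicate 2.

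Which of the 10 receptors were called changed with the CBX7 library left out. Without CBX7 replicate 2, 3 receptors had an adjusted p under 0.05 in edgeR: EGFR at -0.81 (adjusted p = 4.34e-14), MET at -0.57 (adjusted p = 5.14e-07) and AXL at -0.25 (adjusted p = 0.0274). In that fit 35.5% of all genes were called, so 3 of 8 receptors is near the share over all genes. Without CBX7 replicate 1, EGFR and MET were at 0.07 each and AXL at -0.03, none of them called, and ERBB3 was called at 0.65 (adjusted p = 0.00835 from edgeR), against 2.59% of all genes. Without CBX7 replicate 2, ERBB3 was at 0.18 (adjusted p = 0.491 from edgeR), and limma on log2(TPM + 1) of all 4 libraries gave it 0.14. Without control replicate 1 or control replicate 2 none of the 10 was called, against 0.384% and 0.291% of all genes. In these fits 1 group has a single library, whose spread is assumed to be that of the other group.

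Other receptors of the same families were compared for context, as a list of 18 genes: the remaining FGF, MET, TAM and EPH receptors. Of these, 9 had enough counts, 0 passed the adjusted threshold, and 3 had an unadjusted p under 0.05, all higher in CBX7 cells, against 3.42% of genes. FGFR4 had 5.66 and 5.33 CPM in control cells and 13.0 and 10.4 CPM in CBX7 cells, a log2 fold change of 1.09 (standard error 0.19, adjusted p = 0.352 from edgeR), and its groups were separate in TPM as well, at 2.84 and 2.91 against 6.65 and 6.11. It passed the adjusted threshold with no filter (adjusted p = 0.000349, against 1.01% of genes) and with the replicate number added to the model (adjusted p = 1.30e-05, against 2.43% of genes). Both fits used a spread shared over genes. The replicate number and the length correction together also called FGFR4, at 1.06 (adjusted p = 0.00250 from edgeR, against 2.29% of genes). In TPM, FGFR4 stayed below FGFR1 in each of the 4 libraries. FGFR4 was also called without CBX7 replicate 1, at 0.93 (against 2.59% of genes), and without CBX7 replicate 2, at 1.24 (against 35.5% of genes). It was not called without control replicate 1 (adjusted p = 0.391 from edgeR), without control replicate 2 (adjusted p = 0.694 from edgeR), by DESeq2 (adjusted p = 0.0609), after the length correction (adjusted p = 0.116 from edgeR) or by limma on log2(TPM + 1) (adjusted p = 0.942).

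EPHB2, a receptor for ephrin-B ligands, had 41.6 and 39.9 CPM in control cells and 54.2 CPM in each CBX7 library, a log2 fold change of 0.41 (standard error 0.13, adjusted p = 0.840 from edgeR). It was called with the replicate number and the length correction together, at 0.63 (adjusted p = 0.00598 from edgeR, against 2.29% of genes), without CBX7 replicate 1 (0.42, adjusted p = 0.0117, against 2.59% of genes) and without CBX7 replicate 2 (0.41, adjusted p = 0.00180, against 35.5% of genes). FGFRL1, an FGF-binding receptor that lacks the kinase domain, had 43.2 and 41.2 CPM in control cells and 54.9 and 55.0 CPM in CBX7 cells, a log2 fold change of 0.38 (standard error 0.13, adjusted p = 0.916 from edgeR). The same 3 fits called it, at 0.40 (adjusted p = 0.0414 from edgeR), 0.39 (adjusted p = 0.0269) and 0.38 (adjusted p = 0.00437). Without control replicate 1 the adjusted p was 0.999 for both EPHB2 and FGFRL1 in edgeR, and without control replicate 2 neither was called. EPHB4, the most abundant of this list, was at 22.1 to 27.3 TPM in the 4 libraries, with a log2 fold change of 0.09 (standard error 0.13). The median of the 9 was 0.31, with 5 genes whose CBX7 libraries lay above both control libraries and 1 whose libraries lay below, against 15.4% and 14.8% of all genes.

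Among 34 ligands of the families of these receptors, PROS1 among them, 16 had enough counts and 0 passed the adjusted threshold, against 0.0202% of all genes. At an unadjusted p under 0.05 there were 2 higher and 1 lower, against 3.42% and 1.32% of all genes. TGFA, a ligand of EGFR, had 29.4 and 30.3 CPM in control cells and 16.0 and 20.7 CPM in CBX7 cells, a log2 fold change of -0.70 (standard error 0.17, adjusted p = 0.597 from edgeR). It passed the adjusted threshold with no filter (adjusted p = 0.0356, against 1.01% of genes) and with the replicate number as a term (adjusted p = 0.00136, against 2.43% of genes). Both fits used a spread shared over genes. TGFA also passed with the replicate number and the length correction together, at -0.87 (adjusted p = 0.00544 from edgeR, against 2.29% of genes). It also did so without CBX7 replicate 1, at -0.52 (against 2.59% of genes), and without CBX7 replicate 2, at -0.90 (against 35.5% of genes). TGFA was not called without control replicate 1 (adjusted p = 0.999 from edgeR) or without control replicate 2, nor by DESeq2 (adjusted p = 0.334), after the length correction (adjusted p = 0.533 from edgeR) or by limma on log2(TPM + 1) (adjusted p = 0.942). EFNA1 and EFNA4, ligands of EPHA2, had log2 fold changes of 0.40 (standard error 0.14) and 0.49 (standard error 0.19) with adjusted p = 0.951 each in edgeR, and both were called without CBX7 replicate 2 (0.46 and 0.66, where 35.5% of all genes were) but not without replicate 1 (0.34 and 0.30). GAS6, the ligand of AXL, was the most abundant ligand, with 91.6 and 91.8 TPM in control cells and 107.9 and 100.1 TPM in CBX7 cells, and its log2 fold change was 0.31 (standard error 0.18). That of GAS6 rested on CBX7 replicate 1: it was 0.075 without that library and 0.50 (adjusted p = 8.26e-06 from edgeR) without CBX7 replicate 2. FGF5 was at 19.7 to 33.4 TPM with a log2 fold change of 0.0075 (standard error 0.18), and HBEGF, a further EGFR ligand, at 19.5 to 24.9 TPM with -0.16 (standard error 0.14). The median of the 16 was -0.14, with 4 separate upwards and 7 downwards, against 15.4% and 14.8% of all genes.

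All 11 adaptors and all 19 inhibitors and turnover genes had enough counts, and in each list 0 passed the adjusted threshold and 0 had an unadjusted p under 0.05, against 0.0202% and 4.74% of all genes. SHC1, an adaptor of the ERBB receptors and MET, was at 144.9 to 227 TPM with a log2 fold change of -0.07 (standard error 0.13), and GRB2, which links receptors to RAS activation, at 67.5 to 94.1 TPM with 0.05 (standard error 0.12). PTPN11, the phosphatase SHP2, was at 45.7 to 97.8 TPM with -0.17 (standard error 0.24), and was lowest in CBX7 replicate 1. HGS, which sorts ubiquitinated receptors for degradation, was at 114.1 to 129.7 TPM with -0.04 (standard error 0.14). ERRFI1, a feedback inhibitor of ERBB kinases, and PTPN1, a tyrosine phosphatase, had log2 fold changes of -0.14 (standard error 0.15) and -0.07 (standard error 0.15). The medians were -0.17 for the adaptors and -0.11 for the inhibitors, against 0.0017 over all genes tested. Within replicates 1 and 2 the log2 ratios were -0.44 and 0.03 for PTPN11, -0.14 and 0.001 for SHC1, and 0.01 and 0.08 for GRB2. They were -0.33 and 0.03 for ERRFI1, -0.20 and 0.04 for PTPN1, and 0.05 and -0.14 for HGS. The part of the length trend of replicate 1 in these medians was not tested.

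**Figure D4:**
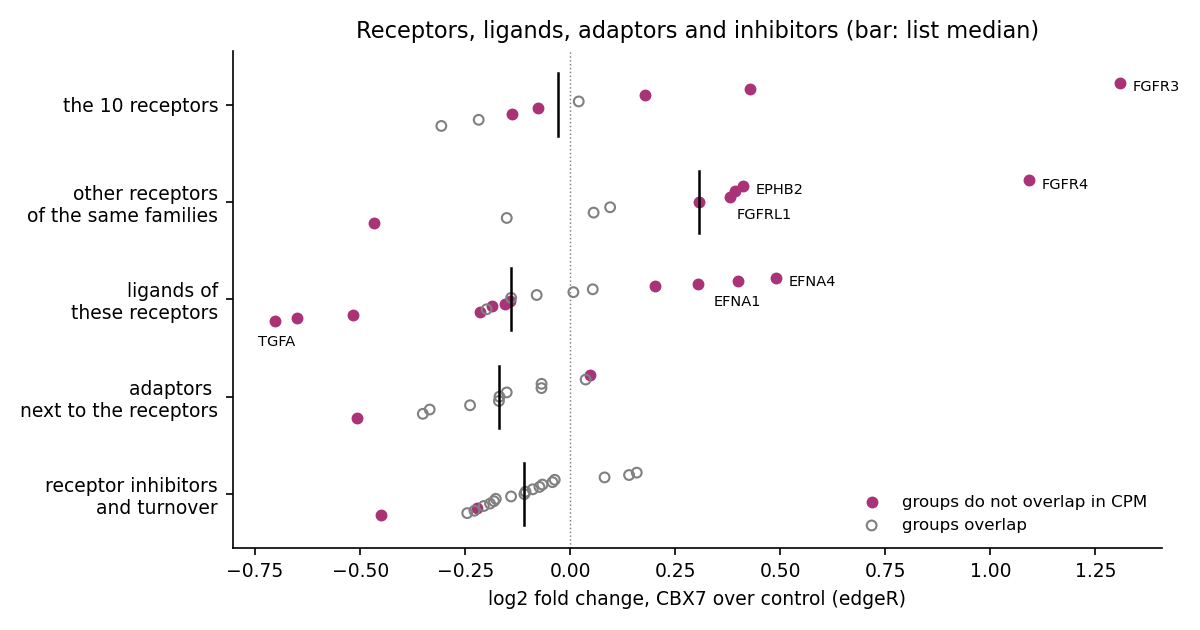
Log2 fold change of CBX7 over control (edgeR) for each gene tested of the 10 receptors and of the lists of other receptors, ligands, adaptors and inhibitors, with the list median as a bar. Filled points are genes whose control and CBX7 libraries do not overlap in CPM, and genes with an unadjusted p under 0.05 are named. FGFR3 and FGFR4 are the genes above 1, and no gene shown passed the adjusted threshold.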

How the data were processed

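The deposited table, made by the authors, holds for each gene and library an expected count (between 88.2% and 88.9% of values were whole, within 1e-06) and a TPM value. The submitters' processing notes name cutadapt 1.9.1, HISAT2 2.0.1, HTSeq 0.6.1, DESeq2 and hg19 with no role, and the tool behind counts that are not whole is not given in the sources used here. The table's ratio, log2 fold change and p-value columns, the authors' deposited comparison, were not used. Of 60623 gene identifiers, 96.5% are in GENCODE release 29.

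Counts were rounded, and the 14862 genes kept by filterByExpr were compared by the quasi-likelihood test of edgeR 4.0.16 (R 4.3.3, default form) after TMM scaling. The model held condition alone, and p-values were adjusted by Benjamini-Hochberg over these genes. The standard error was obtained by dividing the log2 fold change by the root of the F statistic. Library depth, between 20800910 and 25135488 counts, sets the limit that a count of 0 allows. With 2 libraries per group an exact permutation test of 1 gene cannot reach 0.05. The length correction removed from each library a loess trend (span 0.4) of its log2 CPM on log2 gene length. Alternatives were DESeq2 1.42.0, limma 3.58.1 on log2(TPM + 1) or log2(TPM + 0.1), other scalings and filters, the newer quasi-likelihood form, a replicate block, and each library left out. The prior degrees of freedom in edgeR, the weight given to the spread over all genes, were 3.61 in the main test. They were infinite with no filter, with the replicate block alone and with each library left out. Those fits thus used a spread shared over genes in place of the gene's own. The steps were tested on simulated data. No library was a copy of its partner (chi-square per degree of freedom 6.49 for control and 59.7 for CBX7).

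The receptors and the gene lists were chosen with earlier results of these data known. The genes named in the results are the 10 receptors, CBX7, and from each other list the 3 with the highest TPM and up to 3 with the smallest unadjusted p under 0.05 whose groups do not overlap. Marker genes, and the genes of the closing observations, which were chosen after their values were seen, fall outside this rule.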

Additional observations from a re-analysis of the deposited data

How the results depend on the processing

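The count of 0 of the 10 receptors with an adjusted p under 0.05 was the same in all 12 alternative fits to the 4 libraries, and from 0 to 3 when each library in turn was left out. Over all genes the count was 3, and 265 with no filter, 67 with the DESeq2 Wald test, 1 with limma on log2(TPM + 1) with no filter, 361 with the replicate block, 341 with the replicate block and the length correction, and from 45 to 5491 with each library left out (5491 without CBX7 replicate 2). Both groups use replicate numbers 1 and 2, and nothing says that a number marks a common batch. Deviations from the group means correlated at 0.38 between libraries of the same number across the genes tested, and at 0.62 across those averaging 100 counts or more, and the block changed no call on any of the 10 receptors. The log2 fold change of CBX7 lay between 6.84 and 7.44 and was past the threshold, over the 12 alternatives and the fits with 1 library left out. The number of receptors expressed was 7, and 6 at 5 TPM.

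Moving from counts to limma on TPM shifted the median over all genes to -0.08 with log2(TPM + 1) and -0.10 with log2(TPM + 0.1). Genes that changed sign in the 3 TPM fits were FGFR3 (-0.049, -0.091 and -0.049), EPHA2 (-0.092, -0.093 and -0.092), EPHB4 (-0.076, -0.079 and -0.076), FGF5 (-0.11, -0.12 and -0.11) and GRB2 (-0.13 in each). FGF5 was also at -0.0010 with upper-quartile scaling and -0.0079 with the replicate block. With each library left out in turn the sign changed for EGFR (-0.81 to 0.067), MET (-0.57 to 0.071), EPHA2 (-0.044 to 0.085), FGF5 (-0.23 to 0.21), PTPN11 (-0.55 to 0.14), SHC1 (-0.15 to 0.0087), ERRFI1 (-0.30 to 0.0051), PTPN1 (-0.23 to 0.069) and HGS (-0.16 to 0.071). The cause was not tested. ERBB4 and FGFR2 are limited by depth.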

Other observations

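Receptors and ligands were unevenly matched in T24 cells, in genes chosen here after their values were seen. HGF, the ligand of MET, had 0 and 1 count in control cells and 0 in both CBX7 libraries, while MET had at least 4409 counts in each library. EGF had 3 to 11 counts per library, whereas EREG, a further EGFR ligand, had at least 734 counts in each library. NRG1, a ligand of ERBB3 and ERBB4, had at least 585 counts, and FGF2, a ligand of FGFR1, at least 1967. AXL and GAS6 were both among the abundant transcripts, and the other TAM receptors TYRO3 and MERTK were at no less than 8.22 TPM and 3.43 TPM. The CBX7 libraries lay above both control libraries in CPM for TYRO3 (log2 fold change 0.31, standard error 0.15, adjusted p = 0.951 from edgeR) and MERTK (0.39, standard error 0.20, adjusted p = 0.951), against 15.4% of all genes. In TPM the groups of MERTK overlapped. Of the EPH receptors, EPHA5, EPHA6, EPHA7 and EPHA8 were listed at 0 in all 4 libraries.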
